A study of Mus musculus with 56 samples.

Results

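Leukocytes leave the blood through the wall of small venules, and 9 genes of that wall were followed in whole front paws of mice with collagen-induced arthritis (CIA), a model in which immunisation with type II collagen leads to joint inflammation. The genes were taken by symbol, and 9 of the 52244 Ensembl genes of the deposited table were found: Icam1, Vcam1, Sele, Selp, Ackr1, Pecam1, Cdh5, Vwf and Kdr. All mice were male DBA/1 mice. The combination group (13 mice) received anti-TNF antibody XT3.11 at 30 mg/kg with anti-IL-6 antibody MP5-20F3 at 10 mg/kg, the anti-TNF group (13) XT3.11 alone at 30 mg/kg, the anti-IL-6 group (13) MP5-20F3 alone at 10 mg/kg, and the isotype group (13) a control IgG1 at 30 mg/kg. These 52 mice were immunised on days 1 and 21 and injected 2 times a week for 5 weeks from day 21. The no CIA group (4 mice) is labelled as having had no treatment, so it differs from the others in immunisation and in injections alike. Paws were collected for RNA on day 91, weeks after the last antibody dose, so no group was still being dosed. The age of the mice is not given in the labels. RNA came from the whole paw, which also holds skin, muscle, bone and marrow. More vessels per paw, more RNA per endothelial cell and RNA of these genes from other cells therefore cannot be told apart.

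In the textbook order of leukocyte entry, the selectins of the venular wall catch leukocytes so that they roll, chemokines held at the surface activate their integrins, and the adhesion molecules Icam1 and Vcam1 then hold them firmly. Cells finally pass between endothelial cells, whose contacts are built from VE-cadherin (Cdh5) and PECAM-1 (Pecam1). P-selectin (Selp) and von Willebrand factor (Vwf) are stored together in Weibel-Palade bodies of endothelial cells and in granules of platelets, whereas E-selectin (Sele) is made anew when endothelium is activated by cytokines such as TNF and IL-1. Ackr1 is an atypical receptor that binds and transports chemokines on venules, and Kdr (VEGFR-2) is the main signalling receptor for VEGF on endothelium.

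Estimated depth ran from 40.1 to 54.9 M fragments per library (median 46.5), which put Sele, the member with the fewest fragments, at an estimated 62 to 1400 fragments and Pecam1 at 4930 to 22100. No pair of libraries held identical values. The least correlated libraries were anti-IL-6 replicate 13 and anti-TNF replicate 4. Mouse numbers run in blocks by group except for mice 2 and 20, which lie in each other's block, and all no CIA libraries lie in the first of 5 runs of index numbers together with isotype replicates 4 and 7 alone. The no CIA group and run 1 therefore cannot be told apart other than through those 2 isotype mice, whereas runs 2 to 5 each hold 3 or 4 of the immunised groups. Treatment and mouse number cannot be told apart.

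The promoters of Icam1, Sele and Selp are shown because these 3 genes varied closely together across mice and had a sequence window. Vcam1 varied as closely with them but had no window. Its Pearson r over the immunised mice was 0.92 with Icam1, 0.86 with Sele and 0.93 with Selp. RefSeq (GRCm38.p6) gave a window for 5 of the 9 genes, and each sequence is the 250 bases upstream of the start site, read on the strand of the gene, here the plus strand for all 3. Capitals mark matches, on either strand, to GGANNTTCC (a form of the NF-kB site), TTCCNGGAA (a STAT palindrome), TGACTCA (the AP-1 site of Fos and Jun dimers) and the common TATA box letters TATAAA.
Icam1, chr9:21015690-21015939: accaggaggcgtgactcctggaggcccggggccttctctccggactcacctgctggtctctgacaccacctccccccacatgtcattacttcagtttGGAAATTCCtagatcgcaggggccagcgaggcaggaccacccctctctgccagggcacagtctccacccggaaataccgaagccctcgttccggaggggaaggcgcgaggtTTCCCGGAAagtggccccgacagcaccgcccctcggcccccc
Sele, chr1:164047984-164048233: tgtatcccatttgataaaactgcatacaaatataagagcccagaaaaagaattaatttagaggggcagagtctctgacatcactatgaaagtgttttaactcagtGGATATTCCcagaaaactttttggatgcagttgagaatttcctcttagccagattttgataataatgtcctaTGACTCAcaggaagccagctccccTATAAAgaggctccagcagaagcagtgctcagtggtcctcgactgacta
Selp, chr1:164115014-164115263: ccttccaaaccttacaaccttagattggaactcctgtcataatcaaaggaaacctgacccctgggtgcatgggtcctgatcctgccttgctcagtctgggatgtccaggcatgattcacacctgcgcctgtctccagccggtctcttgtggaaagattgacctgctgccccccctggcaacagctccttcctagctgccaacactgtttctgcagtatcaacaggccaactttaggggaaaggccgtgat
Icam1 held GGAAATTCC at positions -153 to -145 and TTCCCGGAA at -42 to -34, counted back from the RefSeq start site. Sele held GGATATTCC at -145 to -137, an AP-1 match at -73 to -67 and a TATA match at -49 to -44. None of these 4 motifs was found in the windows of Selp, Ackr1 or Kdr. Over the 32851 windows of the table, GGANNTTCC stood in 3.59%, TTCCNGGAA in 0.91%, TGACTCA in 4.46% and TATAAA in 12.4%. A looser NF-kB form without capitals here, a GGG and a CC with any 5 bases between them, matched in the windows of Icam1, Kdr, Sele (overlapping GGATATTCC) and Selp, and in 45.8% of all windows. These are matches of letters only, and no binding was measured.

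All 9 genes passed the filter on low values (a mean of at least 1 FPKM in any group), and all 9 were higher than in no CIA mice in each of the 4 immunised groups. Averaged over the 52 immunised mice, the level was 6.91 times the no CIA mean for Selp, 4.23 times for Vcam1, 4.20 times for Sele and 2.17 times for Icam1. The ratio was 1.82 for Pecam1, 1.73 for Cdh5, 1.55 for Kdr, 1.53 for Ackr1 and 1.295 for Vwf. Few of these differences passed the test: Icam1 and Ackr1 rose in anti-IL-6 mice relative to no CIA mice (0.558% of all genes were called in that comparison), and no other member was called in any of the 12 comparisons. FPKM is a fragment count divided by the length of the transcript and by the mapped fragments of the library. Tests were limma fits on log2(FPKM + 1) with Benjamini-Hochberg adjustment over 14700 genes and a threshold of 0.05.

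**Figure D1:**
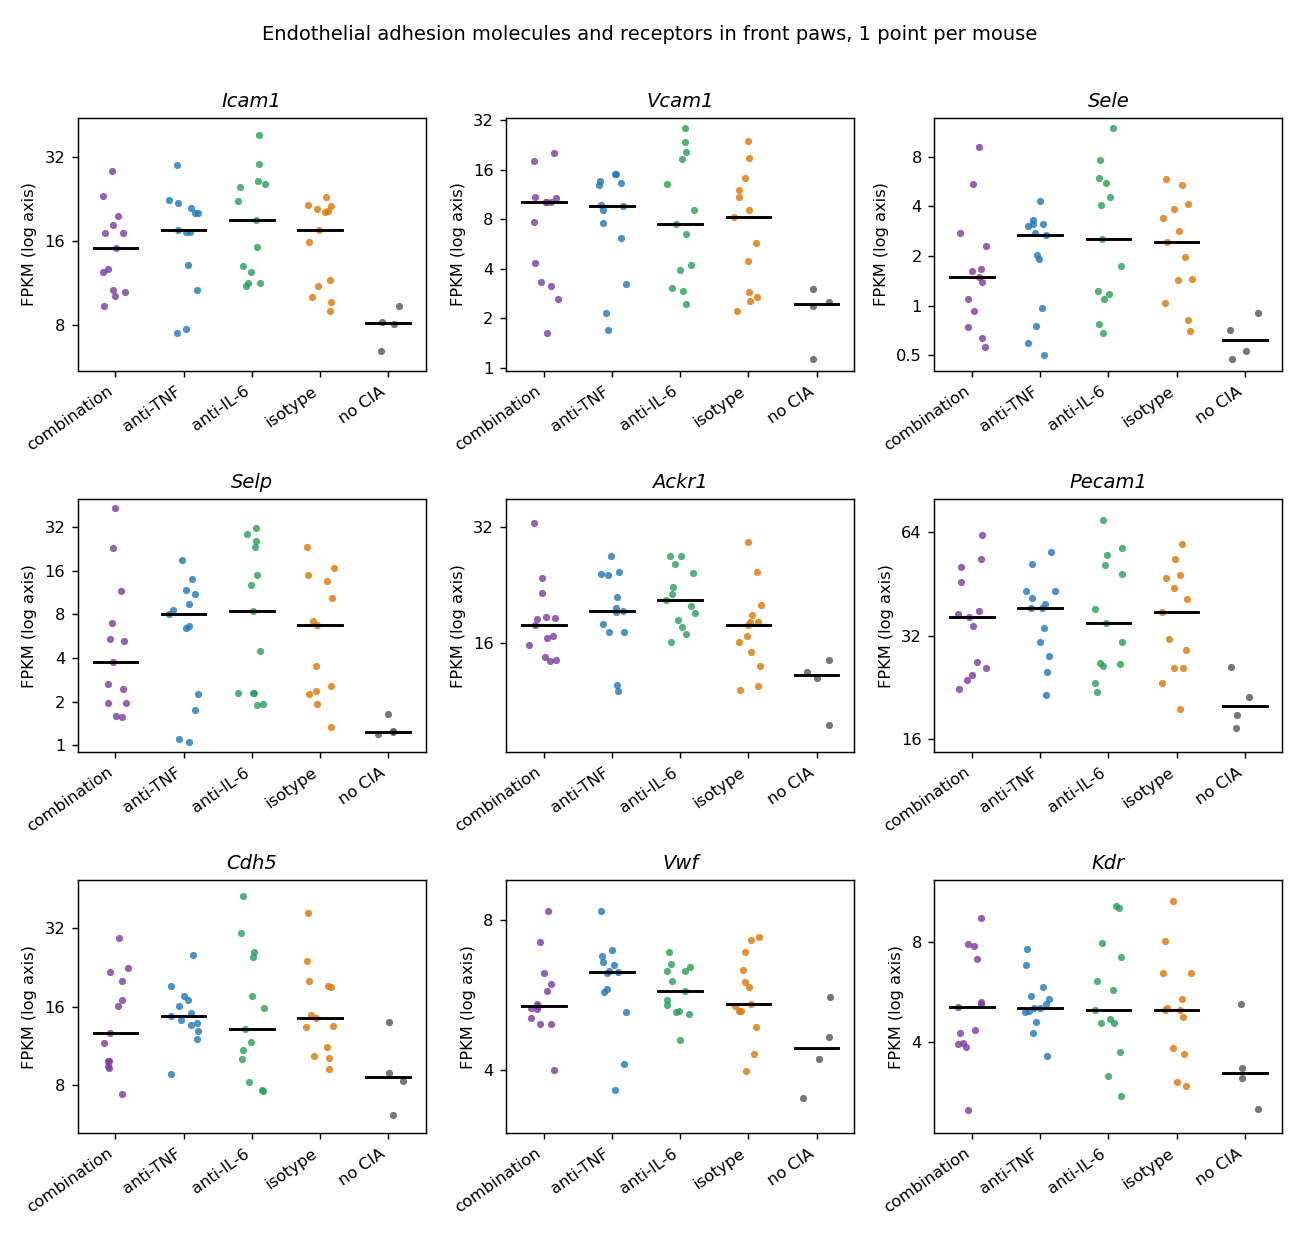
FPKM on a log axis of each of the 9 genes, 1 point per mouse, with the group median as a bar (13 mice in each of the combination, anti-TNF, anti-IL-6 and isotype groups, 4 without CIA). Of the 52 immunised mice, 49 lay above the highest no CIA value for Icam1 and 21 for Kdr.

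P-selectin had the widest range. Selp (ENSMUSG00000026580.16, chr1:164115264-164150026, plus strand) had a lowest, median and highest FPKM of 1.57, 3.75 and 43.1 in combination mice, 1.06, 8.06 and 18.9 in anti-TNF mice, 1.91, 8.37 and 31.4 in anti-IL-6 mice and 1.34, 6.78 and 23.4 in isotype mice. The 4 no CIA mice had 1.26, 1.198, 1.64 and 1.23 FPKM. Of 52 immunised mice, 47 lay above all no CIA mice and 2, anti-TNF replicates 7 and 13, lay below them. The immunised values thus spanned 40.6-fold, from mice at the no CIA level to combination replicate 11. The mean of the 4 immunised groups exceeded no CIA by a log2 of 1.62 ± 0.615 (SE, limma adjusted p = 0.163).

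E-selectin followed the same mice at a lower level. Sele (ENSMUSG00000026582.6, chr1:164048234-164057677, plus strand, next to Selp) had a lowest, median and highest FPKM of 0.564, 1.49 and 9.22 in combination mice, 0.505, 2.68 and 4.32 in anti-TNF mice, 0.681, 2.54 and 11.9 in anti-IL-6 mice and 0.705, 2.42 and 5.90 in isotype mice. No CIA mice had 0.908, 0.529, 0.718 and 0.474 FPKM. The groups overlapped in 10 of 52 immunised mice. The log2 difference of the immunised groups from no CIA was 0.97 ± 0.383 (SE, limma adjusted p = 0.169), on a scale that understates changes of so low a gene.

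Among the integrin ligands, Icam1 separated the mice most cleanly. Icam1 (ENSMUSG00000037405.8, chr9:21015985-21028817, plus strand), the ligand of the leukocyte integrins LFA-1 and Mac-1, had a lowest, median and highest FPKM of 9.35, 15.0 and 28.5 in combination mice, 7.49, 17.4 and 29.8 in anti-TNF mice, 11.0, 19.0 and 38.2 in anti-IL-6 mice and 8.92, 17.5 and 22.95 in isotype mice. No CIA mice had 8.01, 8.18, 9.32 and 6.43 FPKM. All 13 combination and all 13 anti-IL-6 mice lay above them, as did 11 anti-TNF and 12 isotype mice. Icam1 averaged 20.0 ± 8.64 FPKM in anti-IL-6 mice (SD, n = 13) and 7.99 ± 1.19 in no CIA mice (n = 4), higher by 1.12 ± 0.288 on the log2 scale (SE, adjusted p = 0.0494 by limma). Over the 4 immunised groups the difference was 0.95 ± 0.261 (limma adjusted p = 0.0744).

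Vcam1 (ENSMUSG00000027962.14, chr3:116109949-116129688, minus strand), the ligand of the integrin VLA-4, had a lowest, median and highest FPKM of 1.63, 10.1 and 20.2 in combination mice, 1.69, 9.66 and 15.2 in anti-TNF mice, 2.42, 7.51 and 28.7 in anti-IL-6 mice and 2.22, 8.22 and 23.96 in isotype mice. No CIA mice had 1.12, 2.36, 2.49 and 3.02 FPKM. Of the immunised mice 42 of 52 lay above them and 10 lay among them. The log2 difference was 1.44 ± 0.491 (SE, limma adjusted p = 0.149). Vcam1 is also made by synovial fibroblasts, so its level need not come from endothelium alone.

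Ackr1 differed little but evenly. Ackr1 (ENSMUSG00000037872.5, chr1:173331886-173333750, minus strand) lies within the annotated span of Cadm3 on the same strand, so shared reads could have been counted for either gene. Its lowest, median and highest FPKM were 14.3, 17.8 and 32.8 in combination mice, 11.99, 19.4 and 26.8 in anti-TNF mice, 16.1, 20.7 and 26.95 in anti-IL-6 mice and 12.04, 17.8 and 29.3 in isotype mice. No CIA mice had 13.4, 13.0, 14.4 and 9.79 FPKM, and every anti-IL-6 mouse lay above them. Ackr1 averaged 21.2 ± 3.75 FPKM in anti-IL-6 mice (SD, n = 13) and 12.7 ± 2.01 in no CIA mice (n = 4), higher by 0.70 ± 0.173 on the log2 scale (SE, adjusted p = 0.0418 by limma).

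The genes that mark endothelium in general differed less than Selp, Sele, Icam1 and Vcam1. Pecam1 (chr11:106654217-106750628, minus strand) was the most abundant member in every group, with 37.1 ± 12.9, 37.8 ± 9.96, 39.2 ± 15.5 and 37.4 ± 12.6 FPKM in combination, anti-TNF, anti-IL-6 and isotype mice and 20.9 ± 3.80 FPKM in no CIA mice. Cdh5 (chr8:104101625-104144511, plus strand) averaged 16.2 ± 7.40 FPKM over the 52 immunised mice and 9.37 ± 3.33 in no CIA mice, and Kdr (chr5:75932827-75978458, minus strand) 5.50 ± 1.92 and 3.56 ± 1.17 FPKM. Vwf (chr6:125546774-125686679, plus strand), which tethers platelets to injured vessel wall, averaged 5.81 ± 1.01 and 4.49 ± 0.872 FPKM. For Cdh5, Vwf and Kdr about as many immunised mice lay among the no CIA values (25, 24 and 30) as above them (27, 28 and 21), and 1 lay below them for Kdr. The log2 differences of the immunised groups from no CIA were 0.77 ± 0.238 for Pecam1, 0.67 ± 0.288 for Cdh5, 0.49 ± 0.210 for Kdr and 0.31 ± 0.114 for Vwf (SE, limma adjusted p = 0.121, 0.188, 0.188 and 0.158).

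The order of the genes by median FPKM differed between mice with and without CIA. Pecam1 came first, Ackr1 second and Sele last in all 5 groups. Icam1 stood above Cdh5 in all 4 immunised groups and below it without CIA (8.09 against 8.64 FPKM). Vcam1 stood above Vwf and Kdr in every immunised group, at 7.51 to 10.1 FPKM, and below both without CIA, at 2.43 FPKM. Selp stood above Vwf and Kdr in anti-TNF, anti-IL-6 and isotype mice, but at 3.75 FPKM below both in combination mice. Among the groups, anti-IL-6 mice had the highest mean for 8 of the 9 genes and anti-TNF mice for Vwf. Medians gave another order: anti-IL-6 mice had the highest median for Icam1, Ackr1 and Selp only. Their medians of Pecam1 (34.8 FPKM) and Vcam1 (7.51 FPKM) were the lowest of the immunised groups. In mean FPKM, neighbouring immunised groups differed by less than the larger of their SDs for every gene. The step from the lowest immunised group down to the no CIA group, the lowest for every gene, exceeded that SD for all but Cdh5. For Selp, Sele and Kdr that group was anti-TNF, with the smallest SD of the immunised groups. Their steps of 6.43, 1.59 and 1.75 FPKM were below the SD of every other immunised group. Only for Ackr1 and Pecam1 did the step exceed the SD of every immunised group.

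Of all genes tested, 0.558% were called in anti-IL-6 mice relative to no CIA mice, and the members called were Icam1 and Ackr1, 2 of 9. Relative to no CIA mice, limma called 0 members in isotype, anti-TNF and combination mice and 0 in the mean of the 4 immunised groups, where 0.156%, 0.551%, 0.156% and 0.633% of all genes were called. At an unadjusted p under 0.05 the members numbered 8, 9, 7 and 9 in these comparisons and 9 in anti-IL-6 mice. Over all 14700 genes, 2449, 2809, 1543 and 3092 had such a p in the same comparisons, and 4138 in anti-IL-6 mice. The median log2 difference of the 9 genes was 0.74 in combination, 0.80 in anti-TNF, 0.80 in anti-IL-6 and 0.75 in isotype mice, where the median of all genes was 0.02, 0.03, 0.07 and 0.03. These comparisons share the same 4 no CIA mice. The 2 calls rested on single mice. Leaving out any 1 of the 4 no CIA mice, or anti-IL-6 replicate 3, 4, 6, 8, 12 or 13, ended both, and leaving out replicate 10 ended 1, with an adjusted p of up to 0.199 for Icam1 and 0.197 for Ackr1 over 17 such fits, while the log2 differences stayed at 1.04 to 1.195 and 0.59 to 0.76.

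**Figure D2:**
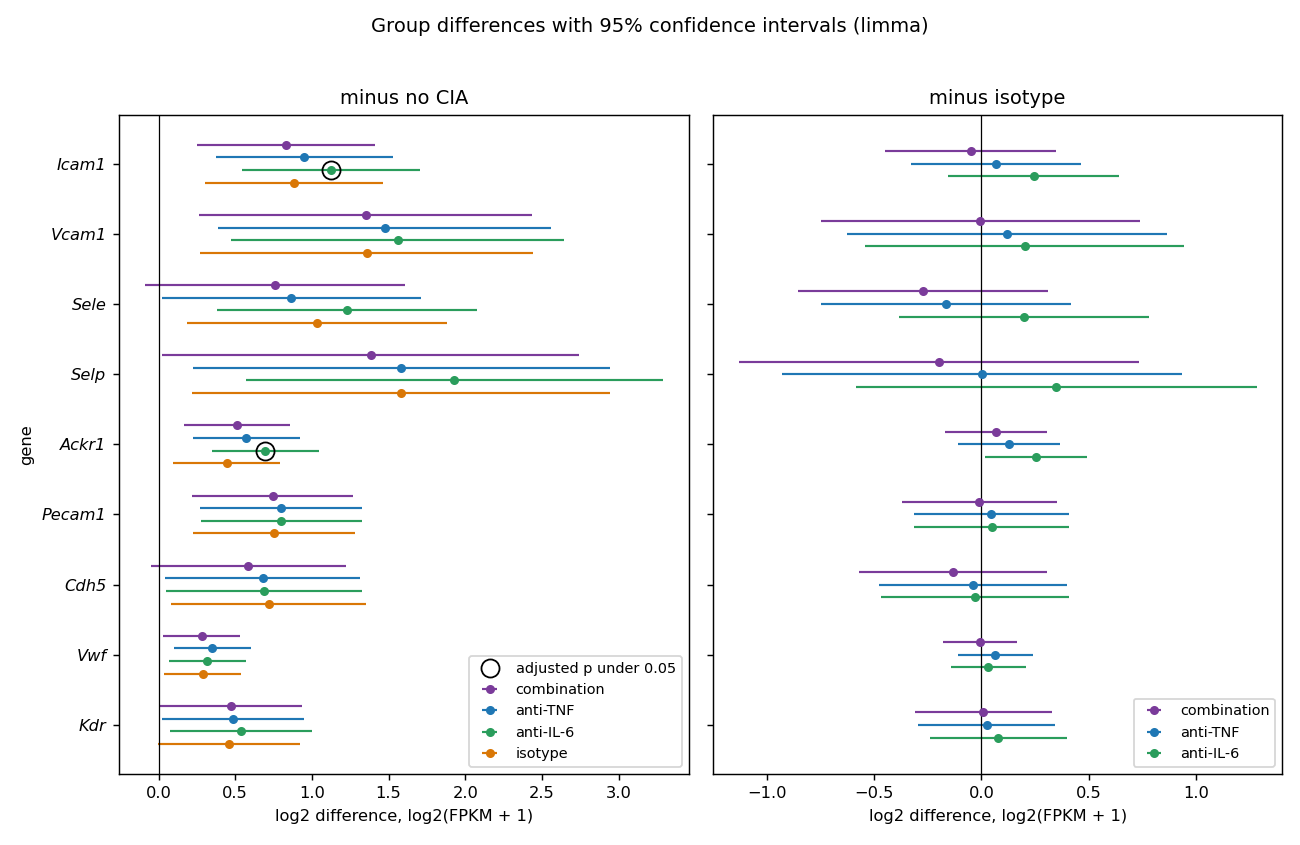
Log2 difference on the log2(FPKM + 1) scale with its 95% confidence interval for each gene, in immunised groups minus no CIA (left) and in antibody groups minus isotype (right). Black rings mark the 2 called differences, Icam1 and Ackr1 in anti-IL-6 mice, and every interval on the right except that of Ackr1 in anti-IL-6 mice includes 0.

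The antibody groups were compared with isotype mice to ask what earlier blockade of TNF, IL-6 or both left behind in these genes. No member was called. Limma called 0% of all genes between anti-TNF and isotype mice, 0.952% between anti-IL-6 and isotype mice and 0% between combination and isotype mice. An unadjusted p under 0.05 was found for 804, 1882 and 850 of all 14700 genes, and for 0, 1 and 0 of the 9 members. The 1 was Ackr1, at 21.2 ± 3.75 FPKM in anti-IL-6 mice and 17.9 ± 4.76 in isotype mice (SD, n = 13 each), a log2 difference of 0.25 with a 95% interval of 0.02 to 0.49 (limma adjusted p = 0.348). Within index runs 2, 4 and 5, holding 4 and 1, 8 and 1, and 1 and 5 mice of these groups, its difference was 0.21, 0.10 and 0.44. The intervals of the other genes show what these groups could not resolve. That of Selp ran from -0.58 to 1.28 in anti-IL-6 mice, from -0.93 to 0.94 in anti-TNF mice and from -1.13 to 0.73 in combination mice, all relative to isotype mice. Vwf had the narrowest intervals, -0.14 to 0.21, -0.11 to 0.24 and -0.18 to 0.17 in the same comparisons.

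Selp was compared inside index runs as well. Anti-IL-6 minus isotype gave -0.30 in run 2 (4 and 1 mice), 0.27 in run 4 (8 and 1 mice) and 1.08 in run 5 (1 and 5 mice) on the log2 scale. Anti-TNF minus isotype gave 0.58 in run 2 (2 and 1 mice), 0.21 in run 3 (5 and 4 mice) and 0.32 in run 5 (6 and 5 mice). Combination minus isotype gave -0.53 in run 2 (4 and 1 mice), 0.31 in run 3 (4 and 4 mice), 0.29 in run 4 (4 and 1 mice) and -1.32 in run 5 (1 and 5 mice). The direction thus differed between runs for anti-IL-6 and for the combination, while every value was positive for anti-TNF. Isotype replicates 4 and 7, at 23.4 and 16.7 FPKM of Selp, lie in run 1, which holds no anti-TNF, anti-IL-6 or combination mouse. They therefore count in the comparisons of whole groups with isotype mice but in none of these within runs.

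On the log2(FPKM + 1) scale the differences of combination minus anti-TNF mice (-0.01 to -0.20) and of combination minus anti-IL-6 mice (-0.04 to -0.55) were negative for all 9 genes, and none was called. These signs were not stable. On mean FPKM, combination mice were above anti-TNF mice for Selp (8.55 and 7.76 FPKM), Sele (2.30 and 2.25) and Kdr (5.44 and 5.31). Over the alternative settings 15 of 108 values of the first comparison and 16 of 108 of the second had the other sign, including Vwf at 0.002 in the second under median-of-ratios scaling. Leaving out 1 library took Vcam1 to 0.01 and Kdr to 0.05 in the first, and Pecam1 and Cdh5 to 0.02 in the second. The largest of these was Selp, whose median was 3.75 FPKM in combination mice and 8.37 in anti-IL-6 mice (log2 difference of means -0.55, 95% interval -1.48 to 0.39, limma adjusted p = 0.612). Limma called 0% of all genes between combination and anti-TNF mice, 0.102% between combination and anti-IL-6 mice and 0% between anti-TNF and anti-IL-6 mice. An unadjusted p under 0.05 was found for 160, 1671 and 688 of all 14700 genes, and for 0 members in any of the 3. The interaction, which asks whether both antibodies together differed from the sum of each alone, was negative for all 9 genes, from -0.06 for Cdh5 to -0.55 for Selp. Over the alternative settings 15 of 108 of its values had the other sign, and leaving out 1 library took Cdh5 to 0.06. Of all genes 0.116% were called in it and 0 members. At an unadjusted p under 0.05 there were 1407 of all 14700 genes and 0 members. The smallest limma adjusted p of a member, 0.551, was that of Ackr1 (log2 -0.32 ± 0.168, SE).

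Across the 52 immunised mice, with each group centred on its own mean, the genes varied together. All 36 pairs had a positive Pearson r, and all 36 passed a permutation test within groups (100000 resamples, adjusted over 36 pairs). The median r of a member with all 14699 other genes was 0.01 to 0.22. Of these genes, 478 had an r of at least 0.9 with Vcam1, 411 with Selp, 330 with Icam1 and 184 with Pecam1. The closest member ranked 83rd among all genes for Icam1 and 137th for Vcam1, but first for Sele, Cdh5 and Kdr. Sele and Selp had r = 0.96 (Spearman's rho 0.97, permutation p = 1e-05 for each, the smallest the resamples can give, adjusted p = 1.29e-05 and 1.33e-05). The r was 0.97 without the 2 mice farthest from the median of the first gene named, the rule for all such values. It was 0.95 to 0.98 within the 4 groups and 0.94 to 0.98 within index runs 2 to 5. Cdh5 and Kdr had r = 0.96 as well (rho 0.95, permutation p = 1e-05, adjusted p = 1.29e-05), 0.95 without the 2 farthest mice, 0.88 to 0.98 within groups and 0.93 to 0.97 within runs. The weakest pairs were Ackr1 with Kdr (r = 0.39, rho 0.43, permutation adjusted p = 0.00459 and 0.00199), Vwf with Kdr (0.39, rho 0.46, 0.00258 and 0.000753) and Sele with Vwf (0.40, rho 0.40, 0.00258 and 0.00386). Within groups Vwf with Kdr ran from -0.01 in anti-TNF mice to 0.76 in combination mice.

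**Figure D3:**
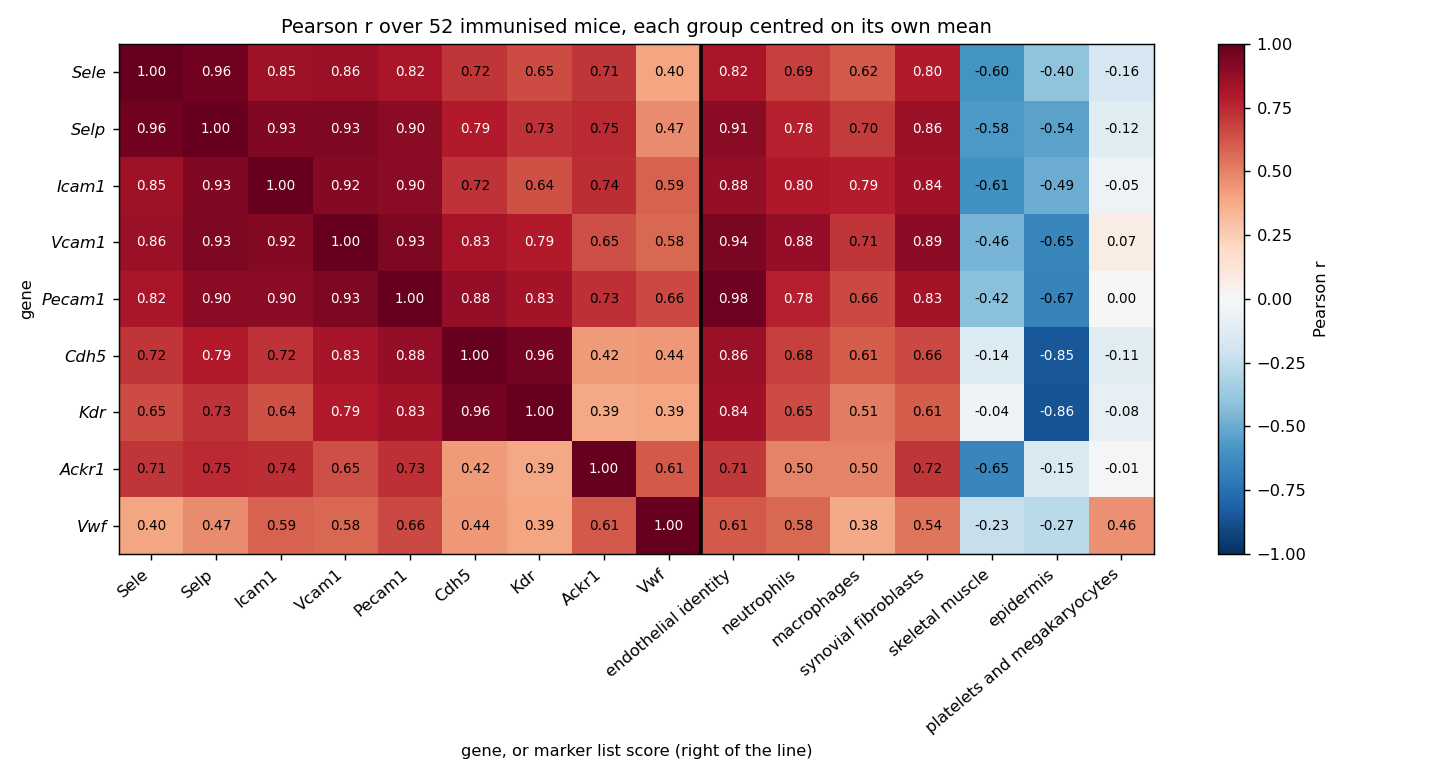
Pearson r over 52 immunised mice between the 9 genes (left of the line) and of each gene with 7 marker list scores (right of the line), red for positive and blue for negative values. Sele and Selp (0.96) and Cdh5 and Kdr (0.96) are the tightest pairs, and Vwf is the one gene with a clear positive value for platelet markers (0.46).

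At the high end the same mice recurred. Combination replicate 11 was the highest of its group for 8 of the 9 genes, anti-TNF replicate 2 for 6, isotype replicate 4 for 6 and anti-IL-6 replicate 13 for 5. The low end was less shared: isotype replicate 5 was the lowest of its group for 7 genes, but no anti-TNF mouse was lowest for more than 4, and no combination or anti-IL-6 mouse for more than 3. Among no CIA mice, replicate 3 was the highest for 7.

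The 9 genes were set against the scores of marker lists, each score being the mean log2(FPKM + 1) of a list. The endothelial identity list, 12 other genes including Tie1, Emcn and Erg, none at 0 in all libraries, had summed levels of 124 to 322 FPKM in combination, 119 to 306 in anti-TNF, 134 to 380 in anti-IL-6 and 117 to 322 in isotype mice and 115 to 160 in no CIA mice. Pecam1 followed that score with r = 0.98, Vcam1 with 0.94, Selp with 0.91, Icam1 with 0.88 and Cdh5 with 0.86, against 0.84 for Kdr, 0.82 for Sele, 0.71 for Ackr1 and 0.61 for Vwf. All 9 had a permutation adjusted p of 1.75e-05 over 63 relations. For Pecam1, r was 0.97 without the 2 farthest mice, and 0.95 to 0.99 within groups. The neutrophil list was closest to Vcam1 (r = 0.88) and Icam1 (0.80), with summed levels of 69.2 to 1109 FPKM in combination, 52.9 to 2592 in anti-TNF, 74.3 to 2289 in anti-IL-6 and 57.6 to 1211 in isotype mice and 52.5 to 72.7 in no CIA mice. Synovial fibroblast markers gave r = 0.89 with Vcam1, 0.86 with Selp, 0.84 with Icam1, 0.83 with Pecam1, 0.80 with Sele and 0.72 with Ackr1. Each of these was above the neutrophil value of that gene. Cdh5, Kdr and Vwf, at 0.66, 0.61 and 0.54, were below their neutrophil values of 0.68, 0.65 and 0.58. Macrophage markers gave 0.38 for Vwf to 0.79 for Icam1. Kdr and Cdh5 were opposed to epidermal markers (r = -0.86 and -0.85), and Ackr1 to skeletal muscle markers (-0.65), all 3 with a permutation adjusted p of 1.75e-05. Mice with high epidermal scores thus had low Kdr and Cdh5 values.

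**Figure D4:**
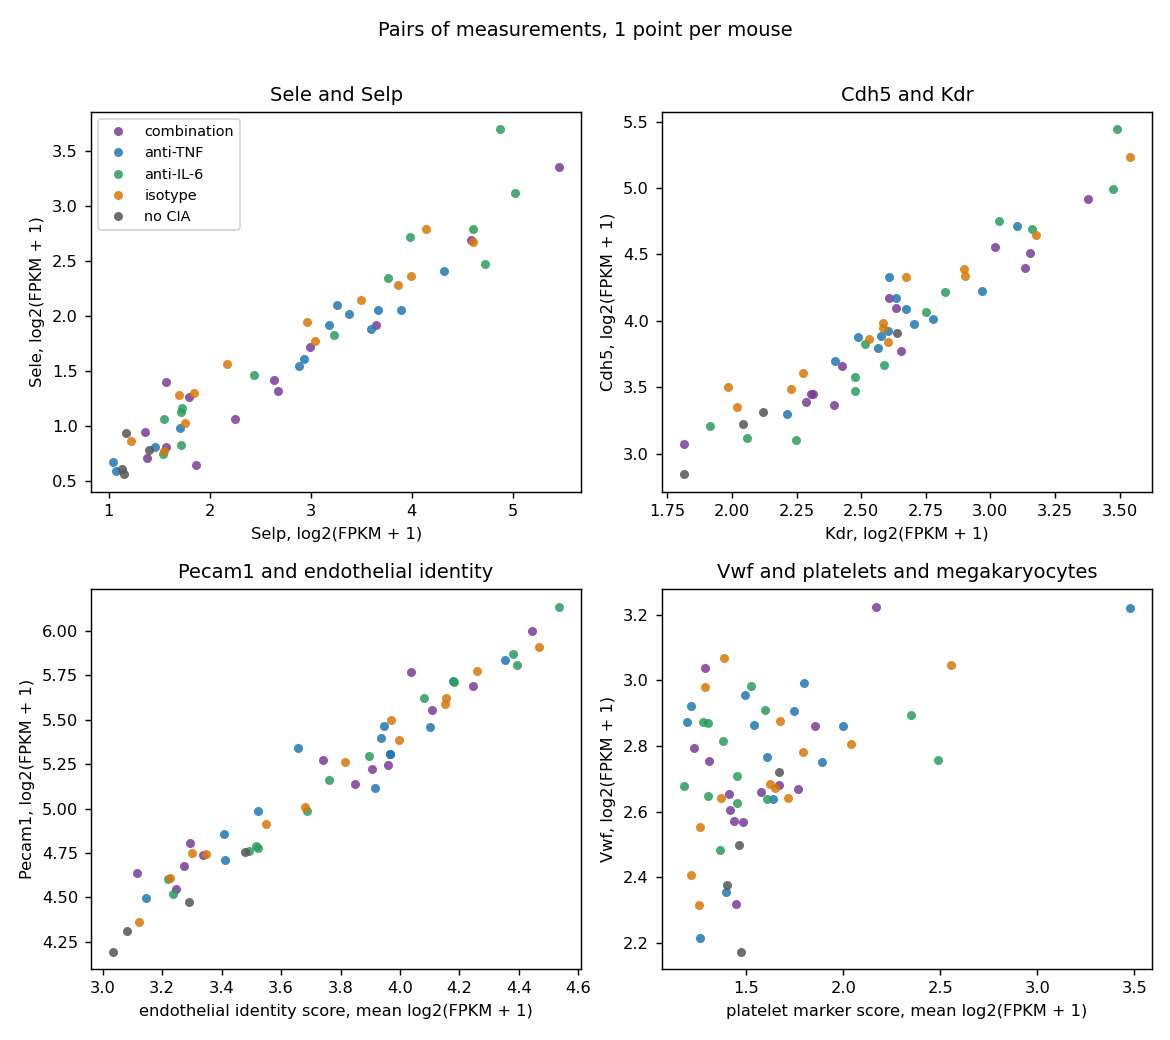
Values of single mice on the log2(FPKM + 1) scale, coloured by group: Sele and Selp, Cdh5 and Kdr, Pecam1 and the endothelial identity score, and Vwf and the platelet marker score. The first 3 pairs lie along a line in each immunised group, whereas the Vwf panel is scattered, with 1 anti-TNF mouse far to the right at a platelet score of 3.48.

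Platelets also make Selp, Pecam1 and Vwf. Only Vwf followed the platelet and megakaryocyte list (r = 0.46 and rho = 0.32, permutation adjusted p = 0.00255 and 0.0311), at 0.40 without the 2 mice farthest in Vwf and 0.23 to 0.56 within groups. These 2 mice were not picked by platelet score. The r was not computed without anti-TNF replicate 1 alone, which had a platelet score of 3.48. Selp had r = -0.12 (adjusted p = 0.464) and Pecam1 0.00 (adjusted p = 0.983) by the same permutation test. The list's 10 markers summed to 47.7 to 98.4 FPKM in combination, 35.2 to 246 in anti-TNF, 41.3 to 126 in anti-IL-6 and 42.2 to 110 in isotype mice and 64.1 to 71.7 in no CIA mice. With the platelet score in the fit, the difference of the immunised groups from no CIA was 1.65 ± 0.618 for Selp and 0.28 ± 0.103 for Vwf (log2, SE). Neither was called, and the part of platelets in these differences was not tested.

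With the endothelial identity score in the fit, the differences of the immunised groups from no CIA were near 0 for most genes. They were 0.33 ± 0.137 for Icam1, 0.26 ± 0.120 for Ackr1, 0.19 ± 0.188 for Vcam1, 0.14 ± 0.058 for Pecam1, 0.13 ± 0.243 for Sele, 0.12 ± 0.097 for Vwf, 0.11 ± 0.288 for Selp, 0.01 ± 0.124 for Kdr and -0.01 ± 0.157 for Cdh5 (log2, SE). With the neutrophil score they were 0.07 to 0.32. Scores and genes come from the same RNA, and which moves the other was not tested. With the endothelial score removed from both genes of a pair, Sele with Selp kept r = 0.91 and Cdh5 with Kdr 0.84. Icam1 with Selp had 0.65, Vcam1 with Pecam1 0.17, Ackr1 with Kdr -0.54 and Ackr1 with Cdh5 -0.53. Of 36 pairs, 16 then passed the permutation test.

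**Figure D5:**
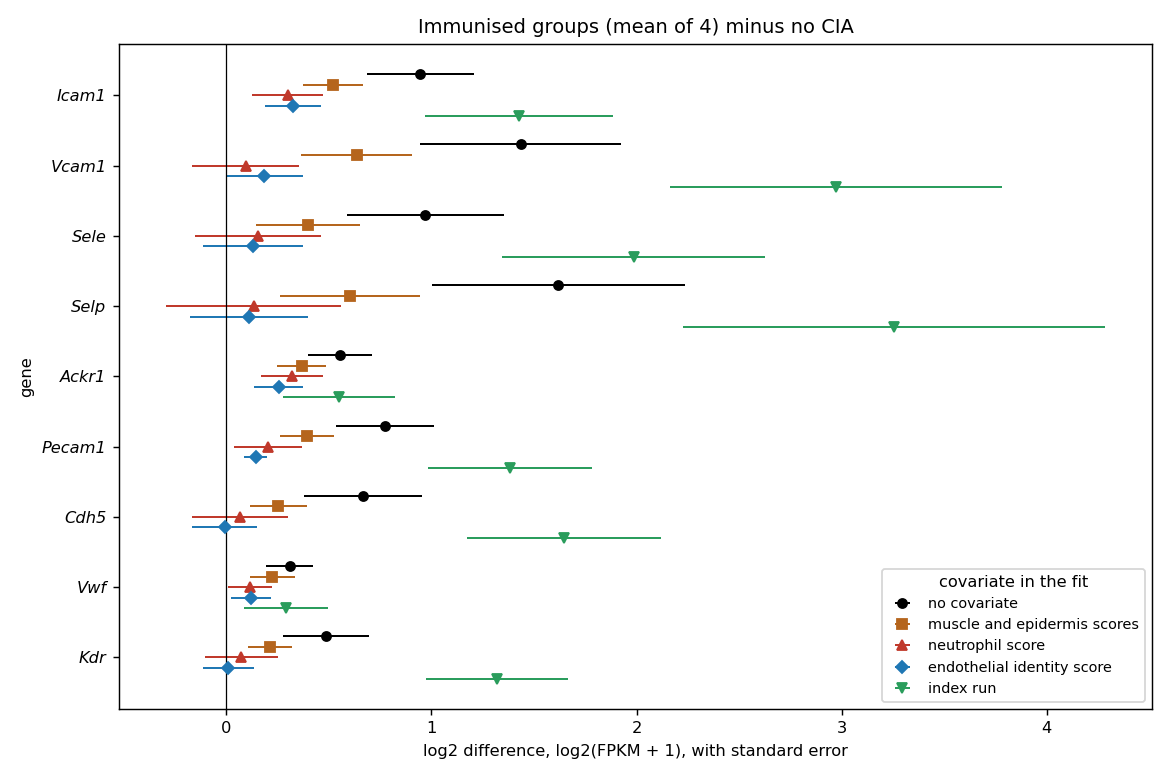
Log2 difference of the mean of the 4 immunised groups minus no CIA, with its standard error, without a covariate and with 4 covariates. Every value is nearer to 0 with the endothelial, neutrophil or muscle and epidermis scores, and 7 of 9 move up with the index run, where isotype replicates 4 and 7 alone share a run with the no CIA mice.

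Within run 1, isotype replicates 4 and 7 averaged 20.0 FPKM of Selp against 1.33 in the 4 no CIA mice, 21.5 against 2.25 of Vcam1, 5.64 against 0.657 of Sele, 21.7 against 7.99 of Icam1 and 17.4 against 12.7 of Ackr1. These 2 mice had the highest Selp of the isotype group (23.4 and 16.7 FPKM, against a group median of 6.78) and the highest Vcam1 (23.96 and 18.95 FPKM, against 8.22). With the index run in the fit, which sets the no CIA mice against these 2, the immunised groups exceeded no CIA by a log2 of 3.26 ± 1.03 for Selp and 2.97 ± 0.810 for Vcam1, and 7 members were called (limma adjusted p = 0.0286 and 0.0224, with 0.0286 to 1.00 and 0.0224 to 1.00 over the alternatives). Of all genes 19.6% were called in that fit.

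The genes most like each member over the 52 immunised mice, of 14700 tested, differed between members. Icam1 was closest to Nfkbie (r = 0.97), an inhibitor of NF-kB, and Bcl3 (0.97), a regulator of NF-kB, followed by Tmem176b (0.97). Vcam1 was closest to Sema7a, Tnc and Kirrel (0.97, 0.97 and 0.96), and Tnc encodes the matrix protein tenascin-C. Sele was closest to Selp, Spon1 and Postn (0.96, 0.93 and 0.92), and Selp to Spon1, Sele and Adamts4 (0.97, 0.96 and 0.96). Pecam1 was closest to Tie1, Shank3 and Arap3 (0.97, 0.96 and 0.96), Cdh5 to Kdr, Pcdh12 and Cd38 (0.96, 0.95 and 0.94) and Kdr to Cdh5, Flt1 and Armcx4 (0.96, 0.93 and 0.92). Tie1, Pcdh12 and Flt1 are endothelial genes. Ackr1 (Tinagl1, Lrrc8a and Numbl, at 0.83, 0.83 and 0.82) and Vwf (Scarb1, Mylk and Lmo2, at 0.73, 0.72 and 0.71) had no gene at 0.9 or above. These genes were picked as the closest, so their values are a description.

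The partners of these molecules shared the direction but not a call. Of 11 genes listed as leukocyte ligands and receptors of the members, 11 were positive in the mean of the 4 immunised groups minus no CIA (median log2 0.68, against 0.03 over all genes) and 0 were called. Which cells of the paw made their RNA was not tested. The most abundant of them were Itgb1, a chain of VLA-4, at 84.3 ± 20.9 FPKM in isotype and 62.3 ± 5.80 in no CIA mice, and Cd44, a hyaluronan receptor, at 36.97 ± 5.03 and 31.0 ± 5.81 FPKM (SD, n = 13 and 4 here and below). Of 5 tested enzymes that build selectin ligands 4 were positive (median 0.28) and 0 called, with B4galt1 at 25.6 ± 6.26 FPKM in isotype and 19.6 ± 1.03 in no CIA mice and St3gal4 at 15.9 ± 4.48 and 11.3 ± 0.554 FPKM.

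All 12 endothelial identity genes were positive (median 0.59) and 0 called, led in abundance by Egfl7 (59.5 ± 20.1 FPKM in isotype and 40.7 ± 7.21 in no CIA mice) and Eng (26.2 ± 8.40 and 16.9 ± 2.51 FPKM), a co-receptor for TGF-beta family ligands. Of 11 other adhesion and junction genes 8 were positive (0.30), with Cd34, a sialomucin, at 86.8 ± 13.3 and 71.6 ± 6.29 FPKM, and F11r, a junction protein, at 42.0 ± 5.46 and 43.97 ± 8.37 FPKM in isotype and no CIA mice. Of 10 genes of Weibel-Palade bodies 8 were positive (0.43), with Igfbp7 at 352 ± 131 and 179 ± 12.4 FPKM and Cd63 at 247 ± 104 and 149 ± 7.56 FPKM in the same groups. Of 12 VEGF and angiopoietin genes 10 were positive (0.33), with Vegfa at 25.5 ± 5.12 FPKM in isotype and 26.2 ± 5.58 in no CIA mice and Vegfb at 30.4 ± 10.1 and 40.9 ± 11.2 FPKM. None of these genes was called.

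Lists of other vessel types held genes of both signs. Of 7 venular genes 6 were positive (median 0.42), with Plvap, a protein of endothelial diaphragms, at 68.97 ± 24.5 FPKM in isotype and 43.5 ± 5.94 in no CIA mice and the water channel Aqp1 at 167 ± 50.3 and 129 ± 17.1 FPKM. Of 11 arterial and capillary genes 7 were positive (0.18), and the log2 difference of isotype minus no CIA was 0.59 for the chemokine Cxcl12 and -0.30 for Rgcc. Of 4 lymphatic genes 3 were positive (0.54), with 0.86 for the chemokine Ccl21a and -1.09 for Lyve1, a hyaluronan receptor. Of 7 pericyte and smooth muscle genes 6 were positive (0.13), with 0.13 for Acta2 and -0.68 for Des. Limma called 0 of these genes.

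Among markers of the other tissues of the paw, 1 gene was called. In the mean of the 4 immunised groups minus no CIA, 8 of 8 neutrophil genes (median 1.32), 8 of 8 macrophage genes (0.65), 6 of 8 synovial fibroblast genes (0.74), 5 of 6 platelet genes (0.20), 2 of 2 tested erythroid genes (0.59) and 9 of 9 genes of the TNF and IL-6 axis (0.54) were positive, against 0 of 8 for skeletal muscle (-0.86) and 0 of 8 for epidermis (-0.33). That gene was Thy1, a surface glycoprotein taken from the synovial fibroblast list. It rose by 0.88 ± 0.225 in that comparison and by 1.01 ± 0.248 in anti-IL-6 mice relative to no CIA mice (SE, limma adjusted p = 0.0467 and 0.0389). Which cells made its RNA was not tested. For isotype minus no CIA, the log2 difference of the most abundant markers was 3.28 for S100a9 and 2.44 for S100a8 of neutrophils, 0.80 for Lyz2 and 0.51 for C1qb of macrophages, 1.94 for Col1a1 and 0.41 for Dcn of fibroblasts, -0.05 for Pf4 and -0.61 for Gp1bb of platelets, 0.87 for Alas2 and 0.87 for Slc4a1 of erythroid cells, -0.80 for Acta1 and -0.60 for Tnnt3 of muscle, -0.11 for Krt10 and -0.46 for Krt1 of epidermis, and 0.26 for Tnfrsf1a and 0.30 for Nfkbia of the cytokine axis, none of them called. The part of these tissues in the 9 genes was not tested beyond the covariate values above. Relative to isotype mice, 0 genes of any of these lists were called in the antibody groups.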

How the data were processed

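RNA was sequenced from front paws of 56 mice, each a library. Per the labels' protocols, TruSeq Stranded mRNA libraries were read as pairs on a NovaSeq instrument. DESeq2, with no version, appears among the tools in the submitters' processing notes. The aligner and genome build, and whether strand was used, were not given in the sources used here. Values in the authors' deposited table are FPKM, a unit inferred from their size. Coordinates follow GENCODE M21 (GRCm38). Antisense transcripts are annotated over Icam1, Vcam1, Selp and Cdh5, so their reads could have been counted together.

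For log2(FPKM + 1), limma 3.58.1 (R 4.3.3, trended and robust prior) was fitted to the 14700 genes that reached a group mean of 1 FPKM, with 1 mean for each of the 5 groups, leaving 51 residual degrees of freedom. The call was checked on simulated data. P-values are two-sided and adjusted over all genes. Correlations were computed in Python 3.11.15 (scipy 1.17.1, numpy 2.4.6, pandas 2.3.3) and figures drawn with matplotlib 3.10.9. Titles carry index numbers, which fall into 5 stretches, called index runs. Members and lists were chosen with earlier results of these data known, and the motifs after the sequences had been read. From each list the text names called genes, or its 2 most abundant genes where none was called, and for each member the 3 genes of highest correlation. The alternatives were pseudocounts 0.1 and 10, no filter, the compared groups alone, median-of-ratios scaling, covariates, and leaving out libraries.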

Additional observations from a re-analysis of the deposited data

Results flagged for a closer look

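Among the 4 no CIA mice, Selp in replicate 3, at 1.64 FPKM, lay apart from the others at 1.198 to 1.26 FPKM: its gap to the nearest was 0.869 of the whole range, above the critical ratio of 0.829. Chance flags about 1 in 20 such groups, and 9 genes were examined. The same mouse was the highest of its group for 7 of the 9 genes.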

How the results depend on the processing

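No paired analysis was possible because the replicate numbers only count the mice of a group in accession order and pair none across groups. In anti-IL-6 against no CIA mice the 2 members called became 0 with pseudocount 10, with no filter, with the muscle and epidermis, endothelial identity or neutrophil scores as covariates and when the 2 least correlated libraries were left out, 1 with the compared groups alone or the platelet score, and 6 with the index run. The index run raised the count to 7 in isotype and in anti-TNF against no CIA mice and in the mean of the 4 immunised groups, against 0 in each otherwise. That fit sets the no CIA mice against isotype replicates 4 and 7 alone. In anti-IL-6 against no CIA mice it also raised the calls over all genes, from 82 to 1608. With all libraries and no covariate, 82, 81 and 93 of all 14700 genes were called in anti-IL-6, anti-TNF and the mean of the immunised groups against no CIA. Leaving out 1 library gave 0 to 2 calls in anti-IL-6 against no CIA mice, 0 to 2 in anti-TNF against no CIA mice (2 without anti-TNF replicate 7) and 0 to 1 in the mean of the immunised groups (1 without anti-TNF replicate 7 or 13). The cause was not tested. The other 8 comparisons had 0 calls under every setting run. Of 36 member pairs, 16 passed the permutation test after the endothelial score was removed, by construction a smaller shared part, and 35 or 36 otherwise. Of 63 relations with list scores 50 or 51 passed. Of 1287 single differences recomputed with another setting, 187 without a call moved by over 1 SE, and 0 called values changed sign. Calls over all genes varied more: in anti-IL-6 against no CIA mice 82 became 29 with pseudocount 10, 16 with the endothelial score, 10 with the neutrophil score, 146 with pseudocount 0.1, 144 without mice 2 and 20, and 1608 with the index run. Comparisons with no CIA rest on 4 mice. Sele had the lowest depth, an estimated 62 fragments in its lowest library, and counting error was not separated from the spread between mice. Leaving out mice 2 and 20, the platelet score and the correlations without 2 libraries were chosen after seeing the data.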

Other observations

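The 9 genes were also set against the messenger RNA of Tnf, Il6 and Il1b, a family of 27 relations chosen after the data had been seen. Over the 52 immunised mice, with groups centred, all 27 were positive and passed a permutation test within groups (adjusted over 27). Selp followed Il1b with r = 0.92 (rho 0.93, permutation adjusted p = 1.35e-05, 0.91 without the 2 farthest mice, 0.85 to 0.98 within groups) and Icam1 followed it with r = 0.91 (rho 0.92, permutation adjusted p = 1.35e-05). With Il6 the values were 0.87 for Selp, 0.86 for Sele, 0.84 for Vcam1 and 0.82 for Icam1. With Tnf they were 0.79 for Icam1, 0.70 for Vcam1, 0.66 for Selp and 0.58 for Sele. Vwf had the lowest values, 0.32 to 0.40 over the 3 cytokines, and Ackr1 had 0.46 to 0.59. All of these genes also follow the endothelial, neutrophil, macrophage and synovial fibroblast scores, and the part of each was not tested.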
